A study of Mus musculus with 12 samples.

Results

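The genes described here are 10 interferon-inducible GTPase genes of the mouse, namely the guanylate-binding protein genes Gbp2, Gbp3, Gbp4, Gbp6, Gbp7, Gbp9 and Gbp10 and the immunity-related GTPase genes Igtp, Irgm1 and Irgm2. They were selected by symbol from a table of raw read counts with 13780 genes, and each of the 10 symbols matched 1 gene. All 10 passed the filter on low counts that 13767 genes passed. The set was put together with results of these libraries already known, so the levels of its genes in the 3 groups are a description, and the counts of these genes called in the 3 comparisons are given beside the share of all tested genes that were called.

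RNA was sequenced from splenic CD8+ T cells of wild type adult C57BL/6J mice, purified by positive magnetic bead selection, in 12 libraries. The naïve group (4 libraries) was frozen right after isolation without activation or treatment. The media group (4 libraries) was kept in plain medium with interleukin-2 and stimulated with beads against CD3 and CD28 for 72 h, and the lactate group (4 libraries) was activated in the same way with 40 mM sodium lactate added. The control was plain medium, so the lactate anion cannot be told apart from the added sodium and osmolality in these libraries. The donor tags gave 5 donors of activated cells, of which 3 contributed to the media group as well as to the lactate group, and the library numbers fell into a low run of 8 libraries and a high run of 4 libraries, with media and lactate libraries in each. The labels do not tie the naïve libraries to donors, so the comparisons with the naïve group take no account of donors. In the fit of all 12 libraries, their p-values rest on a spread between libraries that the 3 groups share for each gene.

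Interferons induce both families. Guanylate-binding proteins are large GTPases that assemble on the membranes of pathogens and of the vacuoles that hold them, and they open the way to inflammasome sensing of bacterial products. Immunity-related GTPases are smaller and fall into effectors that break up pathogen vacuoles and regulators that sit on the membranes of the cell itself and keep the effectors inactive there. Igtp, also named Irgm3, Irgm1 and Irgm2 are the regulators. In T cells these genes are known as part of the response to interferon-γ, the cytokine that activated CD8+ T cells secrete.

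The libraries held between 14726904 and 21478137 assigned reads. Values are given as CPM, the reads of a gene relative to the size of the library, after scaling of the library sizes by trimmed mean of M-values (TMM), in the order of replicates 1 to 4, and changes were called in edgeR's quasi-likelihood test where the adjusted p did not exceed 0.01. The 4 T cell markers Cd3e, Cd3g, Cd8a and Cd8b1 summed to between 1348 and 3219 CPM in the naïve libraries, 2360 to 2997 in media and 1833 to 2298 in lactate. The naïve libraries also held RNA of other spleen cells. Their 5 B cell markers summed to 2069 to 4733 CPM, 6 myeloid markers to 475 to 1573 CPM, 4 red cell markers to 84.1 to 3369 CPM and 3 NK cell markers to 43.4 to 136 CPM. Nearly all of that NK cell sum was Tyrobp (40.3 to 128 CPM), while Ncr1 was at 1.56 to 4.62 CPM and Klrb1c at 1.56 to 4.45 CPM. In the activated libraries the myeloid sum was at most 19.0 CPM, the red cell sum at most 1.90 CPM and the NK cell sum at most 1.43 CPM. The 3 markers of CD4 T cells summed to 43.4 to 74.6 CPM in naïve, 47.9 to 60.6 in media and 83.0 to 96.2 in lactate libraries. In the activated libraries that sum was mostly Zbtb7b (44.2 to 55.3 CPM in media and 74.3 to 88.4 CPM in lactate), while Cd4 itself was at 11.2 to 27.1 CPM in naïve and at most 0.990 CPM in activated libraries.

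The regions just upstream of the start sites show what these genes share in sequence. In the RefSeq promoter windows of mouse build GRCm38.p6, which run from 250 bases before to 50 bases after a start site, 6 of the 10 genes had an entry, and no window was listed for Gbp4, Gbp6, Gbp9 and Gbp10. The core of the interferon-stimulated response element, which interferon regulatory factors bind, was searched on both strands as GAAANNGAAA, and the interferon-γ-activated site as TTCNNNGAA, which reads alike on both strands. The stretches of 30 bases below are shown because each holds the match to the response element core in the window of its gene, 5′ to 3′ on the strand of the gene, and the capitals mark the matched bases.
Gbp2: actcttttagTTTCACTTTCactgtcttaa
Gbp3: gacacagTTTCAGTTTCTATTTCccagatc
Gbp7: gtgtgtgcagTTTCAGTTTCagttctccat
Irgm1: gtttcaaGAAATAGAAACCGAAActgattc
Igtp: ccatTTCTAGGAActGAAACTGAAAgctgt
Irgm2: ccatTTCCAGGAActGAAACTGAAAgctgt
The stretches lie at chr3:142620594-142620623 for Gbp2, chr3:142559992-142560021 for Gbp3 and chr3:142530273-142530302 for Gbp7, all on the plus strand. Those of the immunity-related GTPases lie at chr11:48871428-48871457 on the minus strand for Irgm1, chr11:58199507-58199536 on the plus strand for Igtp and chr11:58214898-58214927 on the plus strand for Irgm2.

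The response element core was in a window of 6 of 6 genes with an entry. Gbp3 had 2 windows, of which 1 held no match, so the core was in 6 of 7 windows of these genes. Over all 32851 windows of this length the core was in 3.44%. In Gbp2, Gbp3 and Gbp7 it read on the opposite strand, as TTTC repeats, and in Igtp, Irgm1 and Irgm2 on the strand of the gene. Gbp3 and Irgm1 each had 2 overlapping matches. The match farthest upstream in each of these windows began between 30 and 64 bases before the start site. The interferon-γ-activated site was in the windows of Gbp7, Igtp and Irgm2, and in 8.3% of all windows. In Igtp and Irgm2 it stood 2 bases ahead of the response element core, and the printed stretches of these neighbouring genes differ at 1 base, inside that site. This joint arrangement was found in 5 of 32851 windows, those of Igtp, Irgm2, Tgtp1, Tgtp2 and Gm12185, all of them in the lists of these families used here. A match of letters does not show that a factor was bound.

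The genes lie in 3 clusters of the mouse genome (GRCm38, GENCODE release M21). Gbp7, Gbp3 and Gbp2 are on chromosome 3, from 142530342 to 142638008, beside Gbp5. Gbp9, Gbp4, Gbp10 and Gbp6 are on chromosome 5, from 105077630 to 105293698, beside Gbp8 and Gbp11. Igtp (58199556 to 58207591) and Irgm2 (58199618 to 58222782) share part of their exons on chromosome 11, and Irgm1 lies apart from them on the same chromosome, from 48861968 to 48871683. Near-identical copies limit what the counts can say. Of the 71-base windows in the transcripts of Gbp10, 78.5% also occur in another gene, mostly Gm43302 or Gbp6, and for Gbp6 the share was 67.9%, whereas it was 11.5% for Gbp7, 8.39% for Igtp, 5.23% for Irgm2, at most 4.07% for Gbp2, Gbp3, Gbp4 and Gbp9, and 0 for Irgm1. Part of this sharing is the same stretch of genome annotated to 2 genes on the same strand. Such overlap covers 46.3% of the exon bases of Gbp10 and 29.0% of Gbp6 (both with Gm43302). It covers 11.3% of Gbp7 (with Gm43802) and 8.01% of Igtp (with Irgm2). Reads from copies elsewhere do not map uniquely, and how reads in overlapping exons were assigned is not stated. The values of Gbp6 and Gbp10 are therefore uncertain.

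Lactate against media was the comparison of cells that were all activated. The 7 guanylate-binding protein genes were lower in lactate than in media, with no overlap between the groups for any of them, whereas Igtp was higher without overlap, Irgm1 was lower with overlap and Irgm2 hardly differed. Of the 10 genes, 4 were called lower (Gbp2, Gbp3, Gbp9 and Gbp10) and 0 higher. Over all 13767 genes 11.1% were called lower and 13.9% higher, and groups that did not overlap were found for 21.5% of genes on the lower side and 23.3% on the higher side. The median log2 fold change was −1.001 over the 10 genes and −1.69 over the 7 guanylate-binding protein genes, beside −0.0016 over all genes. With donor as a block, which uses the 8 activated libraries and the 3 donors that gave both conditions, 9 of the 10 genes were called, 8 lower and 1 higher, and in that fit 12.6% of all genes were called lower and 14.7% higher. That fit also leaves out the naïve libraries, and 5 donors among 8 libraries leave it few degrees of freedom. The 2 groups alone without a block gave calls for 8 of the 10 genes, beside 33.3% of all genes. Gbp4, Gbp6, Gbp7 and Igtp were called in both, and the part of the donor terms was not tested. RNA from bulk cells does not tell fewer expressing cells apart from less RNA in each cell.

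**Figure D1:**
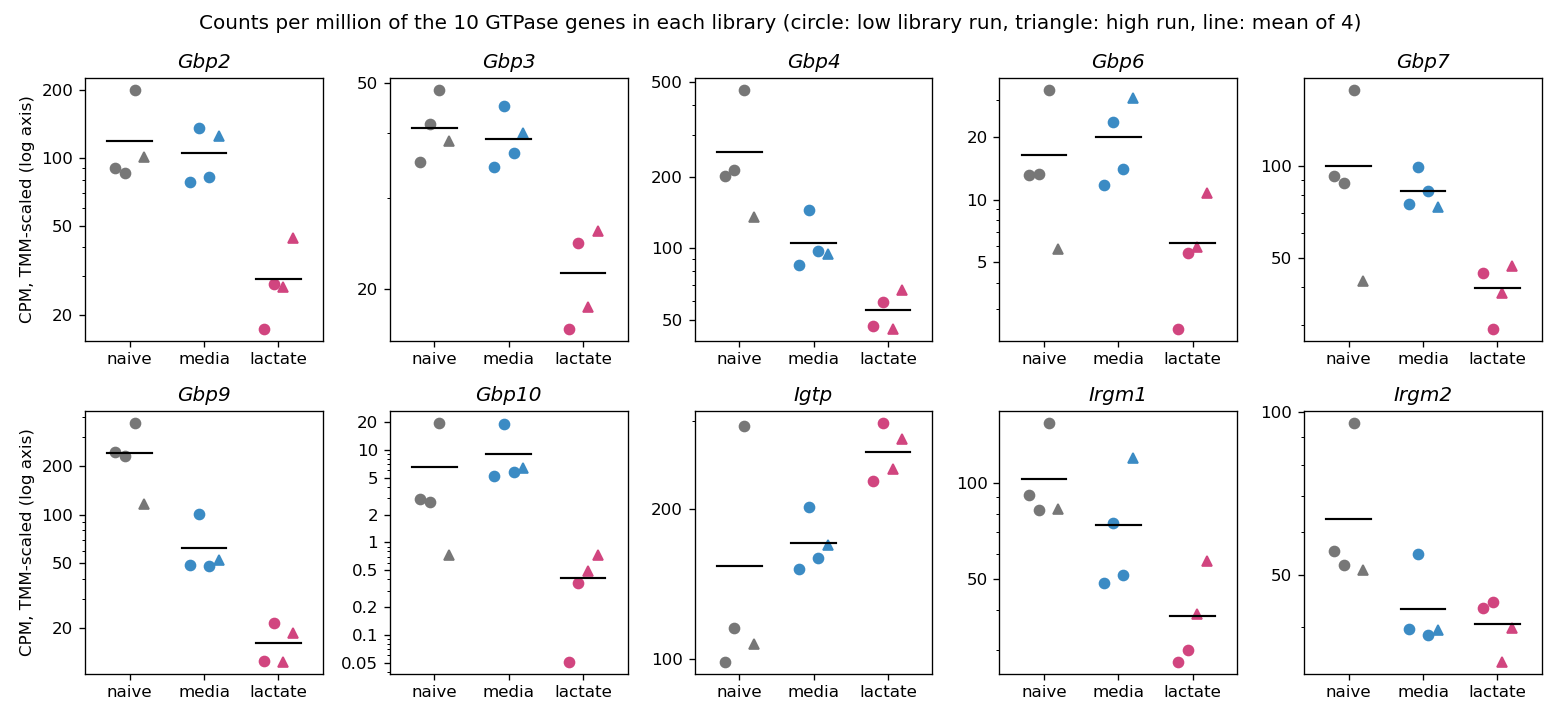
CPM of each of the 10 genes in every library (log axis, its range set for each gene), by group, with circles for the low and triangles for the high run of library numbers and a line at the mean of 4 libraries. All 7 guanylate-binding protein genes sit lower in lactate than in media without overlap, Igtp sits higher, and replicate 3 is the highest of the naïve libraries for all 10 genes.

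On chromosome 3, Gbp2, whose protein targets the vacuoles of intracellular parasites and bacteria, was at 77.9, 136, 82.0 and 125.7 CPM in the media libraries and at 17.4, 27.5, 26.7 and 43.9 CPM in the lactate libraries. The highest lactate library was below the lowest media library, and the ratio of the group means was 3.65. The log2 fold change was −1.87 ± 0.33 (SE), with an adjusted p of 0.001 in edgeR. Gbp3 was at 34.4, 45.1, 36.7 and 40.1 CPM in media and at 16.8, 24.6, 18.5 and 26.0 CPM in lactate. It changed least of the 4 called genes but with the smallest spread, by −0.86 ± 0.16 on the log2 scale (adjusted p = 0.00117 in edgeR). Gbp7, known for its part in the vacuolar defence and in the oxidative burst of phagocytes, was at 75.0, 99.1, 82.9 and 73.4 CPM in media and at 44.5, 29.2, 38.1 and 47.0 CPM in lactate. The groups of Gbp7 did not overlap, but its log2 fold change of −1.06 ± 0.33 had an adjusted p of 0.0215 in edgeR and was not called. With donor as a block it was −0.95 ± 0.16 (adjusted p = 0.0022) and was called.

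On chromosome 5, Gbp9 was at 48.8, 101, 48.5 and 52.2 CPM in media and at 12.6, 21.3, 12.4 and 18.6 CPM in lactate. Its log2 fold change was −1.95 ± 0.35 (adjusted p = 0.00102 in edgeR), and media replicate 2 stood well above the other media libraries. Gbp4 was at 85.2, 144, 97.1 and 94.6 CPM in media and at 46.9, 59.5, 45.8 and 66.4 CPM in lactate. Its groups did not overlap either, and its log2 fold change of −0.95 ± 0.32 was not called (adjusted p = 0.0307 in edgeR) but was called with donor as a block (−0.68 ± 0.10, adjusted p = 0.00123). The 2 genes of this cluster that share most of their sequence were at the lowest levels. Gbp6 was at 11.7, 23.6, 14.0 and 30.5 CPM in media and at 2.41, 5.56, 5.94 and 10.7 CPM in lactate. Its log2 fold change was −1.69 ± 0.53 (adjusted p = 0.024 in edgeR), and with donor as a block −1.65 ± 0.19 (adjusted p = 0.000416). Gbp10 had 113, 348, 103 and 101 reads in the media libraries and 1, 7, 7 and 15 reads in the lactate libraries. That is 5.23 to 19.0 CPM in media and 0.0512 to 0.723 CPM in lactate, and the log2 fold change of −4.45 ± 1.00 was called (adjusted p = 0.00394 in edgeR). The call of Gbp10 was lost when media replicate 2 or lactate replicate 1, 2 or 3 was left out, with an adjusted p of up to 0.0139.

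Of the 3 regulators, Igtp, whose protein sits on the endoplasmic reticulum and on lipid droplets, moved the other way. It was at 151, 202, 160 and 169.5 CPM in media and at 228, 296, 240.5 and 276 CPM in lactate. Every lactate library was above every media library, and the ratio of the means was 1.52. The log2 fold change was 0.61 ± 0.29 in the fit of all 12 libraries and was not called (adjusted p = 0.118 in edgeR), while the exact permutation test of 4 against 4 libraries gave a two-sided p of 0.0286, the smallest it can give. With donor as a block the log2 fold change was 0.74 ± 0.10 and was called (adjusted p = 0.000681). The spread in the fit of 3 groups included naïve replicate 3, which had 293 CPM beside 99.02 to 116 CPM in the other naïve libraries, and without that library Igtp was called at 0.60 ± 0.12 (adjusted p = 0.00201). Igtp alone among the 10 genes passed the test upward in these fits of lactate against media.

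Irgm1, whose protein is found on membranes of the Golgi apparatus, mitochondria and lysosomes, was at 48.8, 75.1, 51.7 and 119.5 CPM in media and at 27.7, 30.1, 38.9 and 57.0 CPM in lactate. The highest lactate library lay above the media replicates 1 and 3, so the groups overlapped, and the log2 fold change of −0.94 ± 0.32 was not called (adjusted p = 0.0341 in edgeR). Both high values came from the same donor, and with donor as a block Irgm1 was called (−0.88 ± 0.10, adjusted p = 0.000436). Irgm2, the neighbour of Igtp, was at 39.7, 54.7, 38.7 and 39.4 CPM in media and at 43.4, 44.4, 34.5 and 39.8 CPM in lactate. Its groups overlapped. The log2 fold change of Irgm2 was −0.09 ± 0.20 (adjusted p = 0.759 in edgeR), and it was 0.13 ± 0.10 with donor as a block (adjusted p = 0.32).

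**Figure D2:**
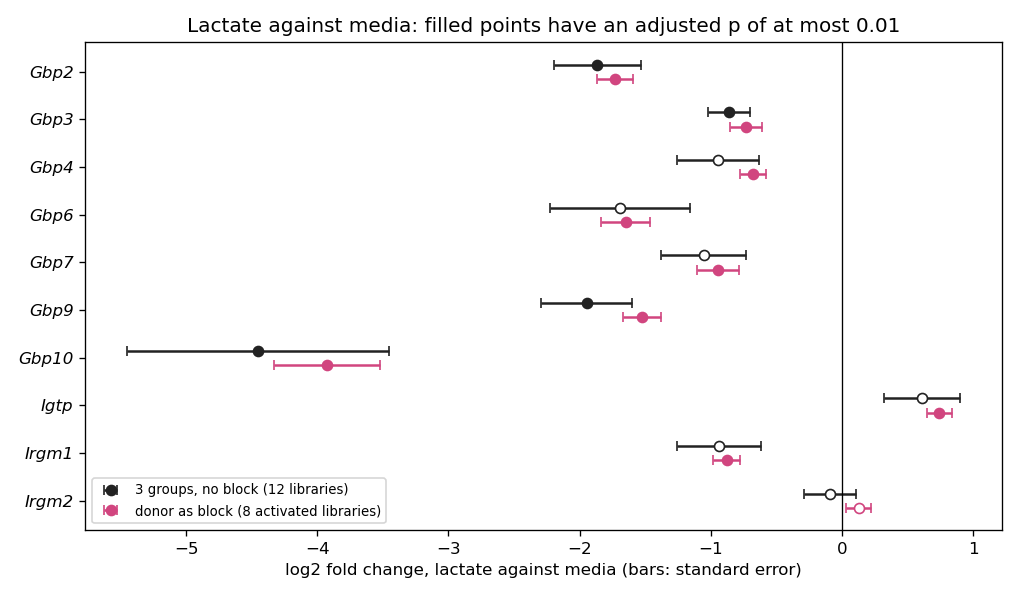
Log2 fold change of each of the 10 genes, lactate against media, with its standard error, in the fit of 12 libraries and in the fit of the 8 activated libraries with donor as a block, with filled points for an adjusted p of at most 0.01. The bars are shorter with the block for every gene, 4 points are filled without it and 9 with it, and Igtp alone lies above 0 in both.

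The 3 donors that gave both conditions moved alike. Within a donor, 8 of the 10 genes were lower in lactate in 3 of 3 donors. The log2 differences of Gbp2 were −2.15, −1.57 and −1.51, and those of Gbp9 were −1.95, −1.18 and −1.48. The donor differences of Igtp were 0.59, 0.89 and 0.70, higher in 3 of 3 donors, and those of Irgm2 were 0.13, 0.20 and 0.013. Within each run of library numbers the direction was the same for 9 of the 10 genes. The high run held 2 lactate libraries and 1 media library, which is also part of 1 of the donor pairs. Gbp2 differed by −2.12 in the low run and by −1.87 in the high run, and Igtp by 0.61 and 0.60, whereas Irgm2 was at 0.0027 and −0.09. Among cell type markers, the summed B cell markers were at 427 to 693 CPM in media and 248 to 330 CPM in lactate, and T cell markers were called lower for 2 of 4 genes. Nearly all of the B cell sum was Ighm, and Cd79a and Ms4a1 were at or below 1.80 CPM in all activated libraries. The part of Ighm-expressing cells in these differences was not tested.

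Levels of different genes can be compared only per length, and length-scaled transcript abundances (TPM) were used for that. Igtp had the highest mean TPM of the 10 genes in all 3 groups, at 259 ± 156 (SD, n = 4) in naïve, 293 ± 38.7 in media and 406 ± 51.4 in lactate libraries. Gbp2 was next in all 3 groups, at 162 ± 73.3, 145 ± 38.8 and 35.9 ± 12.7 TPM. In the naïve group Gbp2 overlapped Gbp9, and without naïve replicate 3 Gbp9 (129 TPM) was above Gbp2 (126 TPM) there. The libraries of Igtp and Gbp2 overlapped in the naïve group and did not overlap in media or lactate. In media, Gbp2 stood clear of Gbp7 (51.1 ± 8.06 TPM), and then Gbp7, Gbp4, Irgm1, Gbp9, Gbp3 and Irgm2 followed at means down to 40.6 TPM, each overlapping the next. In lactate the order below Igtp was Gbp2, Irgm2 (34.8 ± 5.16 TPM), Gbp4 (23.0), Gbp7 (22.3), Gbp3 (20.7), Irgm1 (20.7), Gbp9 (9.90), Gbp6 (3.22) and Gbp10 (0.327). Gbp2 overlapped Irgm2 there, as did the neighbours from Gbp4 to Irgm1, and the other neighbours did not overlap. Gbp9 went from rank 3 in naïve cells (157 ± 65.8 TPM) to rank 6 in media and rank 8 in lactate, and Irgm2 from rank 7 to rank 8 and rank 3. Gbp6 and Gbp10 were the lowest in all 3 groups, on counts that are uncertain because of shared sequence.

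The sum of the 10 genes was 929 ± 437 TPM in naïve, 724 ± 135 in media and 577 ± 71.1 in lactate libraries. The 7 guanylate-binding protein genes together made 552 ± 246, 348 ± 84.0 and 115 ± 23.4 TPM of these sums. Igtp alone made 22.3 to 31.1% of the sum in naïve libraries, 38.1 to 43.3% in media and 66.5 to 73.1% in lactate, so the 3 groups did not overlap in this share. The ratio of Igtp to the summed guanylate-binding protein genes was at most 0.538 in naïve libraries, between 0.749 and 0.947 in media and between 2.83 and 3.99 in lactate. In naïve replicate 3, where every 1 of the 10 genes was at its naïve maximum, this ratio (0.538) was close to that of naïve replicate 4 (0.522).

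**Figure D3:**
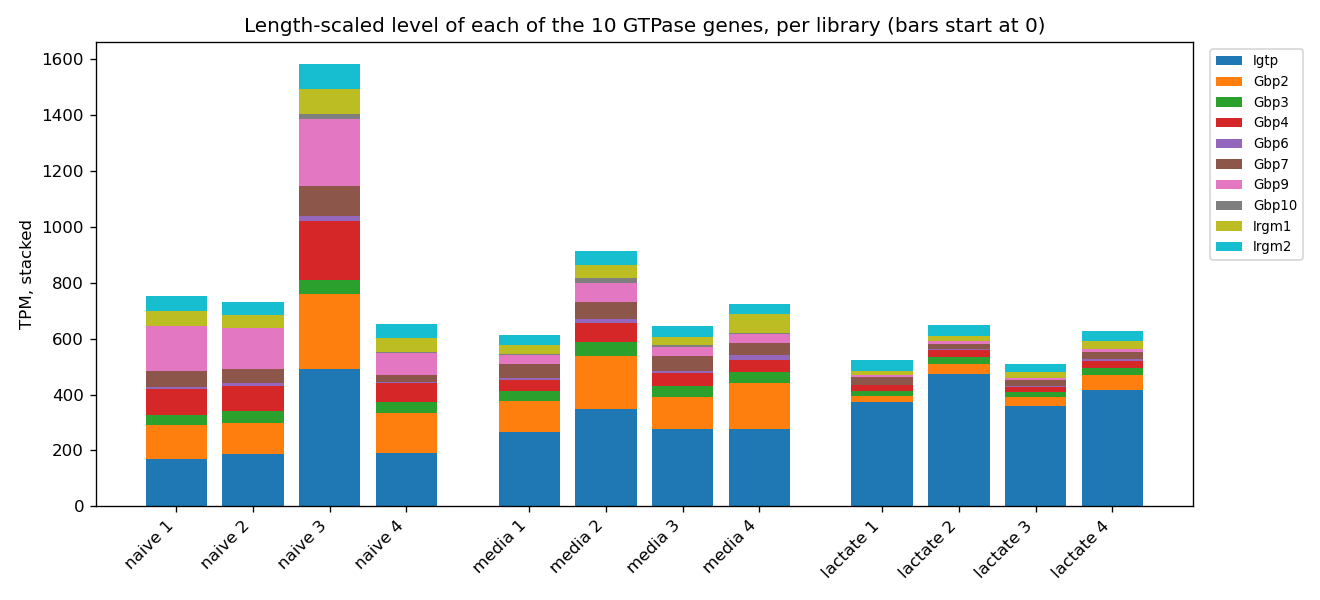
Stacked TPM of the 10 genes in each of the 12 libraries, with bars starting at 0 and Igtp at the base of each bar. Igtp makes 66.5 to 73.1% of the bar in the lactate libraries and 22.3 to 31.1% in the naïve libraries, and naïve replicate 3 has the tallest bar, at 1582 TPM.

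Media against naïve is the comparison of activation in plain medium. Of the 10 genes, 2 were called lower (Gbp4 and Gbp9) and 0 higher, beside 29.0% of all genes called lower and 28.5% called higher, so the share of these genes called was not above the share of all genes. The naïve libraries differ from the media libraries also in the B cell, myeloid, red cell and NK cell markers given above, the last of them mostly Tyrobp. The part of other spleen cells in the differences was not tested. Gbp9 was at 243, 232, 367 and 117 CPM in naïve libraries, all above the media libraries. Its log2 fold change was −1.93 ± 0.34 (adjusted p = 2.58e-04 in edgeR). Gbp4 was at 202, 213, 461 and 136 CPM in naïve libraries, and its naïve replicate 4 was below media replicate 2. The log2 fold change of Gbp4 was −1.26 ± 0.32 (adjusted p = 0.00326 in edgeR), and its call was lost without media replicate 1 or 3 and with the naïve and media groups alone (adjusted p of up to 0.0125).

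The other 8 genes did not pass the test between media and naïve. Gbp2 was at 89.9, 86.1, 200.06 and 101 CPM in naïve libraries and Gbp3 at 35.2, 41.7, 48.4 and 38.6 CPM, and both overlapped the media libraries, with log2 fold changes of −0.18 ± 0.32 and −0.07 ± 0.16. Irgm1 (−0.48 ± 0.32), Irgm2 (−0.56 ± 0.20), Gbp7 (−0.27 ± 0.32), Gbp6 (0.28 ± 0.51) and Gbp10 (0.49 ± 0.80) lay on either side of 0. Igtp was at 99.02, 116, 293 and 107 CPM in naïve libraries and differed by 0.15 ± 0.29 (adjusted p = 0.663 in edgeR). Naïve replicate 3 decided several of these values. It was the highest naïve library for 10 of 10 genes, while its B cell markers (2069 CPM) were the lowest and its T cell markers (3219 CPM) the highest of the naïve libraries. Without it the median over the 10 genes went from −0.23 to 0.014, Igtp was called higher in media (0.59 ± 0.13, adjusted p = 0.00146), Gbp10 was at 2.00 ± 0.64 (adjusted p = 0.0154), and Gbp4 and Gbp9 were still called lower, so 3 genes were called in place of 2, beside 28.7% of all genes called lower and 25.2% called higher without that library.

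Lactate against naïve shares its libraries with the comparisons above and is given beside them. Of the 10 genes, 7 were called lower (Gbp2, Gbp3, Gbp4, Gbp7, Gbp9, Gbp10 and Irgm1) and 0 higher, beside 32.0% of all genes called lower and 33.0% called higher. The median log2 fold change was −1.41, beside 0.012 over all genes. Gbp9 differed most of the genes with high counts, by −3.88 ± 0.37 (adjusted p = 1.14e-06 in edgeR), a ratio of group means of 14.8. Gbp2 differed by −2.05 ± 0.33 (adjusted p = 1.13e-04), Gbp4 by −2.21 ± 0.33 (adjusted p = 4.79e-05) and Irgm1 by −1.41 ± 0.32 (adjusted p = 0.00155). Irgm2 was lower in every lactate library than in any naïve library and just missed the threshold (−0.65 ± 0.20, adjusted p = 0.0103 in edgeR). Igtp was at 0.76 ± 0.29 (adjusted p = 0.032 in edgeR), and at 1.19 ± 0.13 without naïve replicate 3 (adjusted p = 6.32e-06). The calls of Gbp7 and Gbp10 did not hold in every fit, as Gbp7 lost its call without lactate replicate 2 (adjusted p = 0.0105) and Gbp10 without lactate replicate 1 or 2, with limma voom and with a term for the library run (adjusted p of up to 0.0253).

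Other GTPase genes, of the 2 families or related to them, were taken from a list written from general knowledge. Of these, 15 of 18 had a row and 14 passed the filter. In lactate against media 4 of the 14 were called lower and 0 higher, beside 11.1% of all genes called lower and 13.9% called higher. With donor as a block, a fit applied to this list after the data were seen, 8 of the 14 were called lower and 1 higher, beside the shares of all genes given above for that fit. Gbp5, which has been linked to inflammasome assembly, was at 83.7, 80.3, 91.8 and 77.3 CPM in media and at 30.5, 41.4, 33.7 and 42.9 CPM in lactate (log2 fold change −1.16 ± 0.23, adjusted p = 0.00203 in edgeR). It was the only 1 of the 14 called higher in media than in naïve cells (0.93 ± 0.23, adjusted p = 0.00324 in edgeR), beside 28.5% of all genes. Gbp8 fell by 1.54 ± 0.38 in lactate (adjusted p = 0.00716), and the tandem genes 9930111J21Rik1 (−2.197 ± 0.27, adjusted p = 1.16e-04) and 9930111J21Rik2 (−2.21 ± 0.27, adjusted p = 1.18e-04) also fell. Gbp11, annotated as a polymorphic pseudogene, was at most 2.35 CPM in the activated libraries (−0.44 ± 0.65). In lactate against naïve 11 of the 14 were called lower, beside 32.0% of all genes. In media against naïve 3 of the 14 were called lower, namely Gbp11, Ifi47 and 9930111J21Rik1. This was not above the 29.0% of all genes called lower there.

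Of the effector immunity-related GTPases, Iigp1, the best studied vacuole-breaking member, had 11.9, 45.6, 12.1 and 30.03 CPM in media and 2.56, 2.10, 2.41 and 7.47 CPM in lactate. These did not overlap, and the log2 fold change of −2.76 ± 0.73 just missed the threshold (adjusted p = 0.0102 in edgeR). With donor as a block Iigp1 was called (−2.202 ± 0.15, adjusted p = 0.000123). Tgtp1 (−0.39 ± 0.49), Tgtp2 (−0.90 ± 0.53) and Ifi47 (−0.27 ± 0.22) were not called. Of the other listed genes, which are not all effectors, Gm12185 (−1.49 ± 0.49), Gm4951 (−2.54 ± 0.79), Irgq (−0.50 ± 0.21) and Gvin1 (−0.66 ± 0.27) were not called either. The donor block called Tgtp2 (−0.95 ± 0.14, adjusted p = 0.00127), Gm12185 (−1.36 ± 0.23, adjusted p = 0.00203) and Gm4951 (−2.18 ± 0.47, adjusted p = 0.00659) lower, and it did not call Tgtp1, Ifi47, Irgq, Gvin1 or Gbp11. Gm12250, annotated as a processed pseudogene, lies just upstream of Igtp, and Gm12250, Igtp and Irgm2 together span 35.0 kb of chromosome 11. It was at 19.7, 21.8, 21.1 and 34.6 CPM in media and at 39.7, 37.2, 32.1 and 39.4 CPM in lactate, and its log2 fold change of 0.61 ± 0.36 was not called (adjusted p = 0.196 in edgeR) but was called higher with donor as a block (0.68 ± 0.16, adjusted p = 0.00888). Of the 24 tested GTPase genes, described or listed, Igtp and Gm12250 were the 2 with a fold change above 0 in lactate against media. The other 22 were below 0 in the fit of 12 libraries, of which Irgm2 was above 0 with donor as a block. Gm5431 did not pass the filter and had at most 3 reads in a lactate library, 6 in a media library and 29 in a naïve library.

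**Figure D4:**
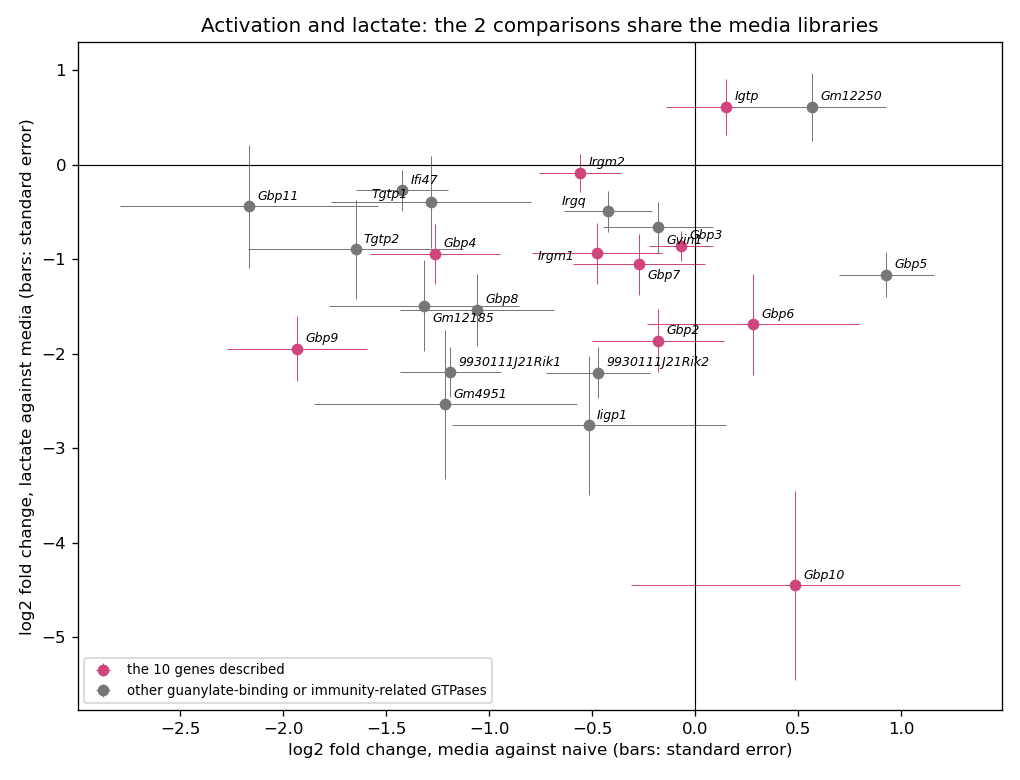
Log2 fold change with standard error of the 24 tested GTPase genes, media against naïve (horizontal) and lactate against media (vertical), with the 10 genes described in colour. Only Igtp and Gm12250 lie above 0 on the vertical axis, Gbp5 lies to the right at 0.93 and Gbp9 to the left at −1.93, and both axes use the same media libraries.

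Genes of the pathway that induces these GTPases were counted from further lists, also written with earlier results known. Of 14 genes of interferon-γ signalling, 3 were called higher and 5 lower in lactate against media, and 3 higher and 9 lower with donor as a block. Over all genes 13.9% were called higher and 11.1% lower, and 14.7% and 12.6% with the block. Ifng, the gene of the cytokine itself, was at 5.73, 1.53, 2.84 and 14.5 CPM in media and at 213, 43.0, 119 and 40.6 CPM in lactate, all above the media libraries (4.09 ± 0.84, adjusted p = 0.00239 in edgeR). Socs1, a feedback inhibitor of the receptor kinases, was higher by 1.45 ± 0.33 (adjusted p = 0.00444) and the transcription factor gene Irf8 by 0.89 ± 0.13 (adjusted p = 3.17e-04). Irf2, a factor that competes with Irf1 for the response element, was at 114, 170.2, 120 and 130.3 CPM in media and at 59.7, 57.8, 60.8 and 67.8 CPM in lactate (−1.12 ± 0.13, adjusted p = 8.06e-05). Ciita, the activator of class II histocompatibility genes, was at 0.314 to 0.836 CPM in media and at 0 to 0.105 CPM in lactate, and was called lower at these low counts. The receptor kinase genes Jak1 (−0.62 ± 0.12) and Jak2 (−0.85 ± 0.14) and the class I activator gene Nlrc5 (−0.70 ± 0.16) were the other 3 called lower, and they are named here after their values were seen.

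Irf1, an early target of interferon-γ signalling, was at 95.3, 161, 97.8 and 557 CPM in media and at 52.8, 78.2, 257 and 315 CPM in lactate. Its high values were those of the high run. The difference of −0.37 ± 0.63 over all libraries was not called (adjusted p = 0.677 in edgeR). It was −0.83 within the low run and −0.97 within the high run, which held 1 media library. With donor as a block Irf1 was called lower (−0.65 ± 0.12, adjusted p = 0.00323).

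Of 14 type I interferon-stimulated genes, 7 were called lower and 0 higher in lactate against media, and 8 lower and 0 higher with donor as a block. Over all genes 11.1% were called lower, and 12.6% with the block. The median log2 fold change of these 14 genes was −2.17. The antiviral genes Oas1a (0.690 to 2.89 CPM in media, 0 to 0.157 CPM in lactate) and Oasl2 (0.925 to 2.51 CPM and 0 to 0.283 CPM) were near 0 in lactate. Mx1 fell by 2.64 ± 0.53 (adjusted p = 0.00201 in edgeR), Irf7, the factor that amplifies type I interferon, fell by 2.62 ± 0.39 (adjusted p = 3.17e-04), and the ubiquitin-like modifier gene Isg15 fell by 2.28 ± 0.53 (adjusted p = 0.00476). Of 12 genes of the ubiquitin-like conjugation that brings these GTPases to vacuoles, 1 was called lower, Atg12 (−1.001 ± 0.13, adjusted p = 1.87e-04 in edgeR), and 0 higher, with a median of −0.25. This was not above the 11.1% of all genes called lower. With donor as a block 3 of the 12 were called lower, beside 12.6% of all genes. Of 8 inflammasome genes that act after guanylate-binding proteins, 2 were called lower and 0 higher, beside 11.1% and 13.9% of all genes, with a median of −0.91. These 2 were the protease gene Casp1 (−0.99 ± 0.26, adjusted p = 0.00866 in edgeR) and the DNA sensor gene Aim2 (−0.82 ± 0.14, adjusted p = 8.8e-04).

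The genes outside the 10 whose log2 CPM followed the mean standardised level of the 10 most closely over the 12 libraries were Iigp1 (Pearson r = 0.97), Nlrc5 (0.948), Phf21a (0.934), Zfp317 (0.93) and Vwa3b (0.929). Over the 8 activated libraries they were E2f2 (0.992), Cdadc1 (0.989), Ccdc28a (0.989), Ssbp2 (0.987) and Grhl3 (0.987). No gene was among the closest 5 in both, and over the 8 libraries a difference between the 2 groups alone gives a high r. These correlations describe the same libraries that share depth and group, and they were not tested.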

How the data were processed

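The authors converted base calls with bcl2fastq 2.20.0.422, aligned reads to the mouse genome (mm10/GRCm38) and removed PCR duplicates with STAR 2.7.5b, and counted uniquely mapped reads in annotated Ensembl exons with featureCounts. The deposited table holds these raw read counts per gene, as whole numbers, with gene lengths and no normalization. Whether reads were assigned by strand is not given in the sources used here.

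The 10 genes, the other gene lists and the rule for named genes were chosen with earlier results of these data known. All 10 genes are named, then every other listed GTPase gene with a row, up to 5 called genes of each other list by the size of the change in lactate against media, with Ifng and Irf1, and the 5 genes with the closest levels. A gene that the rule also names is not reported here.

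The counts were analysed in R 4.3.3 with edgeR 4.0.16. The filter asked for 1 CPM in no fewer than 3 libraries and dropped 13 genes. TMM scaling was used, and all 12 libraries entered 1 quasi-likelihood fit with a term for each of the 3 groups. Tests were two-sided, p-values were adjusted by Benjamini and Hochberg over all 13767 genes, and 0.01 was the threshold. The standard error was taken as the size of the log2 fold change over the root of its F value. CPM and TPM were computed here from the counts, and differences within donors and runs are in log2 CPM with a prior count of 2. Exact permutation tests enumerated 70 arrangements of 4 against 4 libraries.

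The groups come from the sample labels. Title numbers and donors do not always match. Across genes, the deviations of media and lactate libraries of the same donor from their group means correlated at 0.374, 0.211 and 0.553. The media and lactate libraries with title number 2, which are of different donors, correlated at 0.297, and those with title number 3 at 0.0038. These correlations alone therefore do not mark the donor pairs. Donor tags mark the same mouse, so the values with donor as a block are printed where they change a call. No library was left out. DESeq2 1.42.0, limma 3.58.1 (voom), other scalings, no filter, blocks, a term for the run and leaving out each library were the alternatives. Coordinates and transcripts came from GENCODE M21 and promoter sequences from RefSeq.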

Additional observations from a re-analysis of the deposited data

Results flagged for a closer look

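In 6 of the 30 sets of 4 libraries (10 genes in 3 groups), the highest library lay further from the others than Dixon's 95% criterion allows. For a single set chance gives about 1 in 20. The 30 sets share 12 libraries and are not independent, so the number flagged cannot be read against that rate. Naïve replicate 3 stood apart for Igtp (293 CPM beside 99.02 to 116), Irgm1 (153 CPM beside 82.4 to 91.2) and Irgm2 (95.4 CPM beside 51.0 to 55.4), the 3 immunity-related GTPases. Media replicate 2 stood apart for Gbp9 (101 CPM beside 48.5 to 52.2), Gbp10 (19.0 CPM beside 5.23 to 6.33) and Irgm2 (54.7 CPM beside 38.7 to 39.7). Media replicate 2 was the highest media library for 8 of the 10 genes, and its donor gave no lactate library. Lactate replicate 4 was the highest lactate library for 7 of the 10 genes and was not set apart by the criterion for any of them.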

How the results depend on the processing

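Of the values of single genes under the alternatives, the looser threshold included, 607 kept their direction and side of the threshold, 42 passed it newly, 12 lost it and 9 changed sign, none of the 9 a called change. The number of the 10 genes called is given with the share of all tested genes called in the same fit. For lactate against media it was 4 (25.1%), and it was 8 with DESeq2 (33.1%), 8 with the 2 groups alone (33.3%), 8 at an adjusted p of at most 0.05 (39.7%), 9 with the replicate block by donor (27.4%) and 4 with the replicate block by title number (23.7%). Leaving out 1 library gave 3 to 7 (16.4 to 35.6% of all genes), with 7 without naïve replicate 3 (24.7%). The 4 genes were among those called in the other fits that used all libraries. For media against naïve the number was 2 (57.5%), and 1 with the 2 groups alone (52.2%). Leaving out 1 library gave 1 to 3 (52.0 to 61.3%), with 1 without media replicate 1 or 3. For lactate against naïve leaving out 1 library gave 5 to 9 (60.2 to 68.5%). With the donor block, chosen for the other lists after the data were seen, 9 of the other listed GTPase genes were called in lactate against media in place of 4. Of the ubiquitin-like conjugation 3 genes were called in place of 1. Over all genes 27.4% were called with the block and 25.1% without it. The counts of the other 3 lists stayed within 1.5 times. The median over the 10 genes ranged from −1.17 to −0.94, from −0.40 to 0.014 (reversed without naïve replicate 3) and from −1.81 to −1.11 in the 3 comparisons when 1 library was left out. In lactate against media, Irgm2 changed sign with the donor block (0.13) and without media replicate 2 (0.044), and ranged from −0.14 to 0.044 over the libraries left out. In media against naïve these ranges were −0.049 to 0.59 for Igtp (below 0 without naïve replicate 1 at −0.028, or 2), −0.39 to 0.11 for Gbp2 and −0.53 to 0.082 for Gbp7 (both above 0 without naïve replicate 3), −0.067 to 0.82 for Gbp6 (below 0 without naïve replicate 4 at −0.0092, or media replicate 4), and −0.16 to 2.00 for Gbp10 (below 0 without media replicate 2). The cause of these changes was not tested. Other scalings moved the median of all genes by less than 0.1 on the log2 scale. With 4 libraries a group the spread of each gene decides which changes are called. The counts of Gbp6 and Gbp10 are uncertain because most of their sequence is shared with other genes.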
